A study of Homo sapiens with 2 samples.

Results

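The regions described here are SOX9 binding sites in promoters that carry the sequence recognised by the trimeric factor NF-Y. They were taken by 2 criteria from SOX9 ChIP-seq of HT-29, a cell line established from a human colorectal cancer. The summit of the peak had to lie within 1 kb of a transcription start site (TSS) of any GENCODE transcript, and Motif 1 had to occur within 100 bp of the summit on either strand. Motif 1 is written as 2 purines, CCAAT, C or G, and a purine. Of 17847 SOX9 peaks, 1362 met both criteria, which is 7.63% of all peaks (Wilson 95% interval 7.25 to 8.03%) and 14.1% of the 9631 peaks within 1 kb of a TSS (13.5 to 14.9%). The number of tags in a peak played no part in the choice. A further 1523 promoter peaks held a CCAAT core outside Motif 1, 6746 held no CCAAT, and 241 peaks with Motif 1 lay farther than 1 kb from any TSS.

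The data consist of 1 SOX9 ChIP library, made with an antibody against SOX9, and 1 input library of sonicated DNA from the same line. Cells of both were grown in medium with serum and given no further agent in the labels, and the SOX9 is that made by the cells themselves. Each library holds 12320108 tags, the input after random removal of excess alignments. With 1 library per condition no value has a replicate error, and no test was made between peaks, which are not replicates. Intervals treat peaks, sites or genes as separate draws, by Wilson's method for shares and by order statistics for medians. They do not cover variation between libraries. Binding of NF-Y itself was not measured in these data, so a match to Motif 1 describes the DNA and not an occupied NF-Y site.

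NF-Y is a complex of NF-YA, NF-YB and NF-YC. The NF-YB and NF-YC subunits pair through histone folds, and NF-YA inserts into the minor groove at CCAAT. Boxes of this kind are common in promoters of vertebrate genes, in either orientation, a short distance upstream of the TSS, and are known for their place in genes of the G2/M phase, of histones, of lipid synthesis and of protein folding in the endoplasmic reticulum. SOX9 is a factor of the HMG box family that also binds in the minor groove. In the gut it is expressed in the stem and progenitor cells of the crypt and in Paneth cells, and in cartilage it drives the chondrocyte programme.

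A few promoters show how the sites are built. Sequences are from the reference genome hg19 and are given 5′ to 3′ on the strand of the gene, with every CCAAT core, or ATTGG where the core is on the other strand, in capitals. The first set holds peaks whose summit region had a single core, at chr17:34136429-34136453 for TAF15, chr1:32757596-32757620 for HDAC1 and chr20:2633202-2633226 for NOP56. All 3 cores are on the strand opposite to the gene.
TAF15: ctgcccgctgATTGGctgccggggt
HDAC1: gcgcaagctgATTGGctggagcggt
NOP56: ccggcctccgATTGGtcgggggggc

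The second set shows cores that follow each other on 1 strand at the spacings found most often. The pair of AP2A1 (chr19:50270077-50270132) is 31 bp apart, RAB4B (chr19:41283976-41284092) has 2 of its 3 cores 41 bp apart and GOT1 (chr10:101190434-101190594, minus strand) has 2 of its 4 cores 52 bp apart. The 8 cores of the lncRNA ENSG00000289222 (chr16:2955813-2955989, minus strand) were the most in any of these peaks.
AP2A1: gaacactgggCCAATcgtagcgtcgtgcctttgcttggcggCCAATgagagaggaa
RAB4B: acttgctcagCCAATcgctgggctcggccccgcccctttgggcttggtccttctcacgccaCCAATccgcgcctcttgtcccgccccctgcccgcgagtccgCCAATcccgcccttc
GOT1: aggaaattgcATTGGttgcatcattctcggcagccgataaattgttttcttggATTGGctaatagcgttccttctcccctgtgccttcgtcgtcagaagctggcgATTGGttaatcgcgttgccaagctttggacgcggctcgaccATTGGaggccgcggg
ENSG00000289222: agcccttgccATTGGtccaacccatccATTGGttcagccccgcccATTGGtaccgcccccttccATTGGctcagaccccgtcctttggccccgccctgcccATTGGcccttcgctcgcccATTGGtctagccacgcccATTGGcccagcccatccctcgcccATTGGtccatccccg

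The third set is from genes of cell division and of sterol synthesis. TOP2A (chr17:38574227-38574402, minus strand) encodes topoisomerase II alpha, CCNB2 (chr15:59397215-59397305) cyclin B2, CENPA (chr2:27008658-27008808) the histone H3 variant of centromeres, and HMGCS1 (chr5:43313798-43313914, minus strand) the cytosolic HMG-CoA synthase. In HMGCS1, 2 cores on opposite strands overlap in a palindrome.
TOP2A: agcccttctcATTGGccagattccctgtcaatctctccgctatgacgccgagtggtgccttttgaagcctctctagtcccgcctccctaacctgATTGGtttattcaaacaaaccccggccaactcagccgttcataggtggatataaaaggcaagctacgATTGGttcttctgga
CCNB2: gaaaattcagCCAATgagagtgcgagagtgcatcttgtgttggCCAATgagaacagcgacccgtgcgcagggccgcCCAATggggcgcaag
CENPA: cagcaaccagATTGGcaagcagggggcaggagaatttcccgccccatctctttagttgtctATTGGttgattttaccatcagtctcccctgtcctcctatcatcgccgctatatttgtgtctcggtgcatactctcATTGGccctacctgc
HMGCS1: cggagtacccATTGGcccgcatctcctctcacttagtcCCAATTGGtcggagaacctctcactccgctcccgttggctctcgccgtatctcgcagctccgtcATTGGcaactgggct

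Promoter peaks with Motif 1 held more SOX9 tags than the other promoter peaks. Their median was 70 tags (quartiles 47 and 107), against 52 tags (quartiles 36 and 76) in the other 8269 promoter peaks, a ratio of 1.35. The intervals of these medians across peaks were 67 to 72 tags and 52 to 53 tags, and describe the peaks of 1 library only. Peaks with a CCAAT core outside Motif 1 lay between, with a median of 57 tags, and promoter peaks without CCAAT had 51. More than 100 tags were found in 381 of the 1362 peaks, 28.0% (25.7 to 30.4%), against 12.8% of the other promoter peaks and 10.7% of all SOX9 peaks. The median fold enrichment over the local input was 13.3 in peaks with Motif 1 (quartiles 9.52 and 20.5) and 9.69 in the other promoter peaks (quartiles 7.50 and 13.2). The highest input signal in the peak, in extended tags per bin of 32 nt, had a median of 6 in both groups. The highest SOX9 signal had medians of 30 and 20.

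The 10 peaks with the most tags held between 345 and 635, and 8 of them were on chromosome 19 or 17. Of all 1362 peaks, chromosome 19 held 139 and chromosome 17 held 111, with median input signals of 7 and 5. AP2A1, which encodes a subunit of the AP-2 clathrin adaptor, held 635 tags at 38.9-fold enrichment, and its signal reached 159 in the SOX9 ChIP, against 9 in the input. TAF15, an RNA-binding protein of the FET family, had 561 tags and the highest signal of all, 240 in the SOX9 ChIP against 10 in the input. HNRNPUL1 followed with 488 tags, CALM3, 1 of the calmodulin genes, with 473, the transcriptional repressor CIC with 452 and CNOT3, a subunit of the CCR4-NOT deadenylase, with 408. The other 4 were DMPK, KMT5C, ANKRD13A and ZNF775, with 374, 367, 356 and 345 tags. DMPK differed from the others of this group, as its summit was 660 bp downstream of the TSS of the gene and its highest signal was 52 in the SOX9 ChIP and 10 in the input.

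Ranked by fold enrichment, which sets the tags against the local input, other peaks came first. The lncRNA ENSG00000289281 reached 127-fold with 190 tags, the histone deacetylase HDAC1 96.8-fold with 244 tags and NOP56, a core protein of box C/D snoRNPs, 83.8-fold with 263 tags. GIPC1 (80.8-fold), the Janus kinase TYK2 (79.6-fold), RNF13 (72.5-fold), ANKRD13A (71.0-fold), ANP32A (68.8-fold), the splicing-associated protein PNN (68.2-fold) and the catalytic subunit of protein kinase A, PRKACA (67.5-fold), completed the 10. Only ANKRD13A was among the 10 peaks of both rankings. The input signal in these 10 peaks reached 3 to 8, and the SOX9 signal 81 to 189.

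Median tags differed between chromosomes, and the extremes had high or low input. The 29 peaks on chromosome 20 had a median of 119 tags and the 26 on chromosome 13 a median of 107, with median input signals of 8 and 8.5. The 44 peaks on chromosome 14, the 9 on chromosome 21 and the 40 on chromosome 22 had medians of 45.5, 45 and 49 tags, with median input signals of 5, 3 and 4. The order was not that of the input throughout, since chromosomes 8 and 17 had medians of 71 and 70 tags at an input of 5, and chromosome 18 a median of 59 at an input of 4. The part of DNA copy number in these levels was not tested.

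Tags also differed with the number of CCAAT cores. Of the 1362 peaks, 495 had 1 core within 100 bp of the summit, 539 had 2, 232 had 3, 75 had 4 and 21 had 5 or more. The median number of tags was 55, 71, 85, 116 and 136 in that order. Their intervals across peaks were 51 to 59, 67 to 77, 78 to 94, 91 to 143 and 124 to 201. The median fold enrichment was 10.7, 14.2, 18.0, 20.6 and 28.2 in the same order, while the median highest input signal was 6 for 1 to 3 cores and 7 for 4 or more. The same order from 1 to 4 cores was found in the 1523 promoter peaks with CCAAT outside Motif 1, with medians of 53, 65, 82 and 118 tags, and the 10 such peaks with 5 or more cores had a median of 82.5. Among peaks with 1 core, those with Motif 1 and those without it had medians of 55 and 53 tags, with overlapping intervals of 51 to 59 and 51 to 56. Peaks with 2 or more cores made up 63.7% of the Motif 1 peaks (61.1 to 66.2%) and 25.4% of the CCAAT peaks without Motif 1 (23.3 to 27.7%). A window with more cores has more chances to hold Motif 1, so a higher share in the Motif 1 peaks follows in part from the choice.

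The 5 peaks with the most cores were those of ENSG00000289222 (8 cores, 179 tags), the Sp1-related factor SP2 (7 cores, 305 tags), the phosphatase PGP (6 cores, 201 tags), STAP2 (6 cores, 131 tags) and TOMM40, the channel of the mitochondrial outer membrane translocase (5 cores, 330 tags). Peaks with a single core could be as strong. HDAC1, NOP56 and TAF15, printed above, each had 1.

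Neighbouring cores were spaced unevenly. Among 1319 pairs of neighbours, 200 were 30 to 32 bp apart between the middle bases of the cores, 15.2% of all pairs (13.3 to 17.2%). This is 66.7 pairs per bp of distance, against 22.4 per bp at 25 to 29 bp and 25.4 per bp at 33 to 37 bp. A second rise lay at 39 to 43 bp, with 38.4 pairs per bp, and a smaller one at 51 to 53 bp, with 23 per bp against 16.7 per bp at 44 to 49 bp. The strand of the cores followed the same pattern. In pairs 30 to 32 bp apart 89.5% had both cores on 1 strand, at 39 to 43 bp 87.5% and at 51 to 53 bp 87.0%, whereas it was 49.6% at 33 to 37 bp and 58.0% at 44 to 49 bp. The single most common distances between cores on 1 strand were 31 bp (69 pairs), 32 bp (58 pairs) and 30 bp (52 pairs), then 41 bp (43 pairs), and 52 bp had 23 pairs. These maxima are 10 and 11 bp apart, which as background is about the length of 1 turn of B-form DNA.

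The fullest distances elsewhere were similar but not the same. In CCAAT peaks without Motif 1 they were 29 and 41 bp, with 27 pairs each whatever the strands, and in promoters of protein-coding genes outside SOX9 peaks 24 bp with 31 pairs and 29 bp with 29. Pairs 30 to 32 bp apart made up 15.2% of pairs in the Motif 1 peaks, 10.8% of 535 pairs in CCAAT peaks without Motif 1 (8.48 to 13.8%), and 8.68% of 749 pairs in promoters of protein-coding genes that no SOX9 peak touched (6.87 to 10.9%), where 84.6% of them had both cores on 1 strand. The rise at 39 to 43 bp held 14.6%, 14% and 8.68% of the pairs in the same order. Both ranges sit on the maxima of the Motif 1 peaks and were not set beforehand. Lower shares elsewhere follow in part from that choice. Among the Motif 1 peaks with exactly 2 cores, those 30 to 32 bp apart had a median of 84.5 tags (interval 70 to 96, n = 94), against 62 at 5 to 29 bp (52 to 73, n = 64), 70 at 33 to 38 bp (57 to 80, n = 55), 73.5 at 39 to 43 bp (60 to 88, n = 96), 65 at 44 to 60 bp (59 to 77, n = 101) and 77 at 61 bp or more (64 to 89, n = 129). Each of these intervals overlapped that of pairs 30 to 32 bp apart.

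The Motif 1 site nearest the summit lay just upstream of the TSS. Measured from the middle base of CCAAT to the nearest TSS of any transcript, the median position was -59 bp (interval -62 to -55), with quartiles of -96 and -26 bp. Of the 1362 sites, 1199 were upstream (88.0%), and the fullest bin of 20 bp, -60 to -41 bp, held 231. Measured to the canonical TSS of a protein-coding gene, a choice made after seeing the data, the 1193 sites within 1 kb had a median of -81 bp (quartiles -128 and -53). The CCAAT was on the strand of the gene with the nearest TSS in 683 sites, 50.1% (47.5 to 52.8%), an interval that includes equal shares of both orientations. Without peaks that had TSSs on both strands within 1 kb the share was 50.6% of 838 (47.2 to 54.0%). In broad groups of upstream sites the median number of tags fell towards the TSS. It was 84.5 at or beyond -150 bp (n = 140), 74 at -149 to -100 bp (n = 183), 71 at -99 to -50 bp (n = 479) and 67 at -49 to -1 bp (n = 397). Sites at or downstream of the TSS had a median of 62 (n = 163). The quartiles overlapped, with 50 and 128.5 in the farthest upstream group and 44 and 98 in the nearest. In bins of 20 bp the fall was not steady, with 68 at -140 to -121 bp and 81 at -120 to -101 bp.

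To see which promoter matches came with SOX9, all Motif 1 matches between -300 and +100 bp of a TSS of a protein-coding transcript were counted. A SOX9 summit lay within 100 bp of 1512 of the 4319 matches, 35.0% (33.6 to 36.4%). The share depended on position, with 43.1% of 641 matches at -150 to -101 bp, 37.5% of 1509 at -100 to -51 bp and 43% of 938 at -50 to -1 bp, but 12.7% of 166 at -300 to -251 bp and 10.1% of 149 at 50 to 100 bp downstream. For the 2 orientations the intervals overlapped, with 35.5% with CCAAT on the strand of the gene (33.5 to 37.6%) and 34.5% with CCAAT on the other strand (32.5 to 36.5%). With 1 core within 100 bp of the match, itself included, 20.9% of 2100 matches had a summit (19.2 to 22.6%). With 2, 3 and 4 cores the share was 44.9% (42.3 to 47.4%), 57.1% (52.9 to 61.3%) and 57.9% (49.9 to 65.5%), but with 5 or more it was 30.8% of 52 (19.9 to 44.3%). Base composition moved with the share as well. In the 201 bp around the match, 5.30% of 811 matches had a summit where GC content was under 50%, and 48.8% of 1006 where it was 70% or more. The parts of core number and GC content were not separated.

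The signal around the site is given as a description. Peaks were called for ChIP over this input, and the site is the match nearest the summit, so a maximum near the site and a level above the input follow from the choice, as do low levels at matches outside peaks. At the bin that holds the middle of CCAAT the mean signal was 36.3 in the SOX9 ChIP and 3.76 in the input. The SOX9 signal fell below 50% of this level at 128 bp on either side, and 512 bp away the mean was 3.99 upstream and 3.91 downstream, against 1.97 and 1.92 in the input. CCAAT peaks without Motif 1 had a mean of 27.1 at the core nearest the summit, with an input of 3.42. The 1613 promoter matches between -200 and -1 bp that no SOX9 peak touched had a mean of 2.70 in the SOX9 ChIP and 1.24 in the input, with medians of 1 in both.

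Summits were close to the site within the window the criteria allowed. The median distance was 27 bp (interval 24 to 28), and 48.5% of the sites were within 25 bp and 75.6% within 50 bp of the summit. Counting the nearest CCAAT core whether in Motif 1 or not, 63.9% of the Motif 1 peaks (61.3 to 66.4%) and 42.5% of the CCAAT peaks without Motif 1 (40.1 to 45.0%) had a core within 25 bp. The Motif 1 peaks also held more cores per window, and the part of this in the shares was not tested. Along the strand of CCAAT the summit was displaced by a median of 5 bp towards the 3′ side (interval 2 to 9 bp). Peaks with the site within 25 bp had a median of 74 tags (n = 660), those at 26 to 50 bp 68 (n = 369) and those at 51 to 100 bp 62 (n = 333).

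All 16 forms of Motif 1 occurred, and the most common was AGCCAATCA in 176 peaks (12.9%), followed by AGCCAATGG in 160 and by GGCCAATGG in 147, while AACCAATGA was found in 20. In the 495 peaks with 1 core the medians ran between 40.5 tags (AACCAATGG, interval 31 to 64, n = 12) and 77 tags (AACCAATCA, interval 51 to 93, n = 19). An A at the first position of the motif went with a median of 60 tags (53 to 64, n = 250) and a G with 51 (47 to 55, n = 245), intervals that overlapped. At the second position the medians were 51 for A and 56 for G, at the eighth 55 for C and 53.5 for G, and at the ninth 56 for A and 53 for G, and there too the intervals overlapped.

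Other sequence elements were searched in the same 201 bp on both strands and set beside CCAAT peaks without Motif 1, promoter peaks without CCAAT and the 201 bp from -150 to +50 bp of all 19881 canonical protein-coding TSSs. The GC box (GGGCGG), bound by Sp1-type factors, was in 68.0% of Motif 1 peaks (65.5 to 70.4%), against 58.2% of CCAAT peaks without Motif 1 (55.7 to 60.6%), 57.1% of promoter peaks without CCAAT (55.9 to 58.3%) and 55.8% of all promoters. The ETS core (CCGGAAG) was in 9.84% (8.37 to 11.5%), against 14.1%, 16.3% and 12.1% in the same order. The AP-1 element (TGACTCA, or TGAGTCA) was in 1.40% (0.895 to 2.17%), against 3.94%, 5.16% and 2.52%. The cell cycle homology region (CHR, TTTGAA or TTCGAA), an element of G2/M promoters, was in 8.74% (7.35 to 10.4%), against 9.78% (8.39 to 11.4%), 5.60% and 7.56%, so it was no more frequent than in CCAAT peaks without Motif 1. E2F sites (GGCGGGAA) were in 4.85% (3.83 to 6.12%), against 3.74%, 3.32% and 2.92%, and the cAMP response element (TGACGTCA) in 3.52% (2.67 to 4.64%), against 2.63%, 2.25% and 2.32%. The SOX9 consensus, which is A or T, A or T, CAA, A or T, and G, was in 8.66% (7.28 to 10.3%), against 11.4% of CCAAT peaks without Motif 1 (9.86 to 13.1%), 8.29% of promoter peaks without CCAAT and 9.24% of all promoters, and 118 peaks held it. Those 118 had a median of 64 tags, and the 1244 others 70.

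The remaining elements were in few peaks. The E-box (CACGTG) was in 7.20%, the TATA box (searched as TATAAA) in 3.30%, the YY1 element (AAGATGGC) in 2.86% and the NRF1 core (GCATGCGC) in 1.69% of the Motif 1 peaks, against 6.68%, 7.05%, 3.60% and 3.58% of all promoters. In CCAAT peaks without Motif 1 the shares were 7.42%, 3.74%, 4.20% and 2.43%. Promoter peaks without CCAAT had 8.45%, 3.05%, 4.12% and 2.80%, so a low share of TATA boxes was common to all 3 groups of promoter peaks. The sterol regulatory element (TCACNCCAC) was in 10 peaks, 0.734%, the strongest being RAB4B with 273 tags and HMGCS1 with 196, against 0.835% of all promoters. Median GC content was 66.2% in Motif 1 peaks and 68.2% in promoter peaks without CCAAT. Of the 119 peaks with a CHR, those with the most tags were HNRNPUL1 (488), TUBB4B (311), UBE2C (272), ATAD2 (251) and FAM83D (230), and the median over all with a CHR was 70 tags, as over those without it.

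The ER stress element is CCAAT followed after 9 bases by CCACG, and joins an NF-Y site to the part bound by ATF6. It was in 7 of the Motif 1 peaks, 0.514% (0.249 to 1.06%), and in 14 of the 19881 promoters, 0.0704%. In CCAAT peaks without Motif 1 the element was in 6 of 1523, 0.394% (0.181 to 0.857%), an interval that overlapped that of the Motif 1 peaks. Since it contains CCAAT, a higher share in peaks chosen for CCAAT follows from the choice. It is shown because 6 of the 7 genes act in the endoplasmic reticulum or its stress response. These are HSP90B1 (GRP94), CALR (calreticulin) and PDIA6 (a protein disulphide isomerase) in folding, XBP1 as a transcription factor of the response and FICD as the enzyme that AMPylates BiP. The sixth, ALG12, is a mannosyltransferase of the same compartment, and its peak is shared with its neighbour CRELD2. Capitals mark CCAAT and CCACG, read on the strand of the element, at chr12:104323989-104324017, chr19:13049193-13049221 (minus strand), chr2:10952974-10953002 (minus strand), chr22:29196586-29196614 (minus strand), chr12:108908895-108908923, chr22:50312197-50312225 (minus strand) and, for TRIM5, chr11:5706340-5706368.
HSP90B1: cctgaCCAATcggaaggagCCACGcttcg
CALR: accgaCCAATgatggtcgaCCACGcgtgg
PDIA6: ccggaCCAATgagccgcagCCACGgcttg
XBP1: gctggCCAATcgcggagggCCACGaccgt
FICD: aacaaCCAATgggagtggcCCACGgcgcg
ALG12: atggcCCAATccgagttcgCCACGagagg
TRIM5: atgggCCAATggcatttctCCACGtaggg

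The peaks were then assigned to genes. Of 20163 protein-coding genes, 1529 had a Motif 1 peak within 1 kb of a TSS (7.58%) and 9035 had a SOX9 peak of any kind there (44.8%). The lists below were drawn up with the known classes of CCAAT genes and earlier results of these data in mind, so their shares are given as descriptions beside these backgrounds. Since lists also differ in how many genes had a SOX9 promoter peak at all, the share with Motif 1 among those genes is given beside it, against 16.9% of the 9035 genes with a SOX9 promoter peak (16.2 to 17.7%).

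Genes of G2 and mitosis were well covered. Of 70, 33 had a Motif 1 peak (47.1%, 35.9 to 58.7%), and 60 had a SOX9 peak of any kind, 55.0% of which had Motif 1. The median of the 33 peaks was 64 tags. TUBB4B, a beta tubulin, had 311 tags, with a highest signal of 131 in the SOX9 ChIP and 12 in the input. UBE2C, the ubiquitin-conjugating enzyme of the anaphase-promoting complex, had 272 tags and signals of 183 and 13. FAM83D, a spindle protein, had 230 tags (signals 121 and 10), and TOP2A 203 tags (135 and 6). The central regulators were lower, with 84 tags for CCNB2, 51 for the mitotic kinase CDK1, 48 for CDC20, 43 for cyclin A2 (CCNA2) and 33 for the polo-like kinase PLK1. CCNB1, cyclin B1, had a promoter peak of 59 tags with 2 cores but no Motif 1.

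Among other genes of the cell cycle, Motif 1 peaks were present at 18 of 65 genes of G1/S and DNA replication (27.7%, 18.3 to 39.6%, and 34.6% of those with a SOX9 promoter peak), with 196 tags at the helicase subunit MCM7, 131 at RRM2, the small subunit of ribonucleotide reductase, 127 at ORC6 of the origin recognition complex and 119 at E2F1. Of 50 kinetochore, condensin and cohesin genes 13 had one (26%, 15.9 to 39.6%, and 29.5% of those with a SOX9 promoter peak), with 281 tags at SKA2, 195 at SMC3, 135 at CENPA and 124 at the condensin subunit NCAPD3. Of 23 centriole genes 5 had one (21.7%, 9.66 to 41.9%, and 26.3% of those with a SOX9 promoter peak), the strongest being WDR62 with 190 tags and STIL, needed for centriole duplication, with 97. The intervals of these 3 lists overlapped that of G2 and mitosis, and the differences were not tested.

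Replication-dependent histone genes, transcribed in S phase from clusters, had Motif 1 peaks at 25 of 63 (39.7%, 28.5 to 52%). Because histone genes are often paired head to head, these 25 genes shared 18 peaks. Among the 45 with a SOX9 promoter peak the share was 55.6%. H2BC5 had 212 tags, H2BC4 156, H3C8 139 and the shared peak of H2AC12 and H2BC12 125, which held 5 cores. At H2BC4 the site was 806 bp downstream of the TSS of the gene. Of the 10 H2A genes in this list 5, H2AC7, H2AC14, H2AC16, H2AC17 and H2AC21, had the site at -66 bp of their own TSS, and the others between -161 and -67 bp. Reads from near-identical histone copies may have been assigned to the wrong copy or dropped as not unique.

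Of cholesterol and fatty acid synthesis genes, 22 of 38 had a Motif 1 peak (57.9%, 42.2 to 72.1%), or 66.7% of the 33 with a SOX9 promoter peak. With the interval midpoint in place of the summit, 13 of the 38 had one, and 26 of the 70 genes of G2 and mitosis. At SQLE, squalene epoxidase, 320 tags stood against a high input, with signals of 51 in the SOX9 ChIP and 16 in the input and 5.62-fold enrichment. HMGCS1 had 196 tags at 30.4-fold (signals 118 and 7), the fatty acid synthase FASN 164 (83 and 7) and the acetyl-CoA carboxylase ACACA 147 (40 and 11). Further enzymes along the sterol pathway were IDI1 (119 tags), MVD (84), FDPS (57), FDFT1 (71), LSS (18) and DHCR7 (110). The master regulators SREBF2 and SREBF1 had 60 and 22 tags, and INSIG1, which retains their cleavage-activating protein, 106.

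The unfolded protein response had Motif 1 peaks at 17 of 45 genes (37.8%, 25.1 to 52.4%), or 42.5% of the 40 with a SOX9 promoter peak. P4HB and PDIA4, both disulphide isomerases, had 223 and 172 tags, HSP90B1 156 and HSPA5, which encodes BiP, 144. HSPA5 had 4 cores and signals of 67 in the SOX9 ChIP and 9 in the input. No whole ER stress element lay within 100 bp of its summit. Bases beyond that window were not searched, so an element that reaches past its edge would be missed. CALR had 121 tags at 67.4-fold, and XBP1 and ATF4 had 93 and 39 tags. The list of heat shock and chaperone genes held 7 of 37 (18.9%, 9.48 to 34.2%), or 23.3% of those with a SOX9 promoter peak. These genes had 6 distinct peaks, as HSPA1A and HSPA1L shared a peak of 30 tags. The strongest were HSPH1 with 275 tags (4.96-fold, signals 52 and 18) and the chaperonin subunit CCT6A with 141.

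The 3 genes of NF-Y itself were all in the set (100%, 43.9 to 100%). Over all protein-coding genes the share was 7.58%, and among those with a SOX9 promoter peak 16.9%. With the interval midpoint in place of the summit, or with a window of 50 bp, 2 of the 3 genes met the criteria. NFYA had 196 tags (signals 52 in the SOX9 ChIP and 9 in the input), NFYC 74 (67 and 4) and NFYB 37 (22 and 4), with 3, 2 and 3 cores.

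Pre-mRNA splicing genes had a Motif 1 peak at 11 of 63 (17.5%, 10.0 to 28.6%), which is 20.8% of those with a SOX9 promoter peak and near the 16.9% of all such genes. Their median was 140 tags, and the strongest were HNRNPA1 with 251, PTBP1 with 191, HNRNPK with 173 and SNRPA with 157. DNA repair genes had one at 12 of 46 (26.1%, 15.6 to 40.3%), or 28.6% of those with a SOX9 promoter peak, led by RMI1, which shares the peak of HNRNPK, and by CHEK2, a checkpoint kinase, with 129 tags.

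In several large classes with housekeeping roles the shares with Motif 1 had intervals that included 7.58%, or were close to 16.9% among genes with a SOX9 promoter peak. Proteasome subunits had a SOX9 peak at 32 of 39 genes and a Motif 1 peak at 1, PSMB3 (2.56%, 0.454 to 13.2%). Chromatin regulators had 42 and 3 of 50 (6%, 2.06 to 16.2%), with HDAC1 the strongest at 244 tags. Mitochondrial ribosomal proteins had 66 and 8 of 78 (10.3%, 5.29 to 19%). Zinc finger genes named ZNF had 253 and 31 of 508 (6.10%, 4.33 to 8.53%). Among genes with a SOX9 promoter peak, the shares of these lists were 3.1%, 7.1%, 12.1% and 12.3% in that order, each below 16.9%. Cytosolic ribosomal proteins had 68 and 12 of 82 (14.6%, 8.57 to 23.9%), or 17.6% of those with a SOX9 promoter peak, led by RPL35 with 203 tags and 61.2-fold enrichment.

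Short lists tied to the tissue, to antigen presentation and to SOX9 in cartilage were too small to be told from the background of 7.58%. Intestinal differentiation genes had a Motif 1 peak at 0 of 27 and a SOX9 peak of any kind at 3, cartilage SOX9 targets at 0 and 3 of 16, and antigen presentation genes at 0 and 3 of 19. With these numbers of genes, the Wilson intervals of 0 reach up to 12.5%, 19.4% and 16.8%, above that background. The shares with any SOX9 promoter peak were 11.1%, 18.8% and 15.8% in the same order, against 44.8% of all protein-coding genes. Few genes of these 3 lists could therefore have a Motif 1 peak. Of 16 intestinal stem cell genes 12 had a promoter SOX9 peak and 1, LRIG1, a negative regulator of ErbB receptors, had Motif 1 (64 tags, 6.25% of the list). The study reports no CCAAT box in the SOX9 peaks of stem cell markers that include LRIG1. The LRIG1 peak here held 2 CCAAT cores, with the site 80 bp downstream of the TSS. Whether both statements concern the same peak was not tested.

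The study picked its own genes from these libraries, so counts over them are no independent evidence. It assigned motifs by a matrix search of the peak sequences. The criteria here ask for an exact word near the summit, so a gene that misses them may still carry the study's motif. Of 19 genes it tested by ChIP-qPCR with Motif 1, 15 had a peak that met the criteria here. The strongest were TOP2A and HMGCS1, given above, KIF1B, a kinesin, with 155 tags at 55.4-fold, and ANKRD39 with 152 tags at 36.7-fold. KCTD7 had 135 tags, TNRC6B 131, RBM27 127, RRBP1 124, HNRNPAB 99, SAP30L 85 and ASPM 84. CCNB1, GATAD2B and ZNF92 had a promoter peak with CCAAT but no Motif 1 in the window, and FRYL one without CCAAT. Of 7 cancer pathway genes named with Motif 1, the criteria here were met by 1, SMAD2, with 48 tags, signals of 16 in the SOX9 ChIP and 4 in the input and 2 cores. Of 7 named with other motifs none met them. FZD5 and FZD8, both named with Motif 1, had a match at -197 and -68 bp of their canonical TSS. Neither match lay within 100 bp of the summit. LRIF1 is given by the study as a promoter bound by NF-YA but not by SOX9, from ChIP-qPCR and ChIP-seq. The deposited peaks do include a weak SOX9 peak there, with 19 tags, 9.22-fold enrichment and highest signals of 9 in the SOX9 ChIP and 2 in the input. That peak held 1 CCAAT core, and no Motif 1 was found within 500 bp of the canonical TSS.

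Protein-coding genes were within 1 kb of 1284 of the 1362 summits (94.3%, against 89.1% of the other promoter peaks). Of the peaks with no protein-coding gene within 1 kb, 69 were named by a lncRNA, the strongest being ENSG00000272043 with 313 tags, LINC01004 with 282 and KCNQ1OT1, the imprinted antisense transcript of KCNQ1, with 211. TSSs of both strands lay within 1 kb of 524 summits, 38.5% (35.9 to 41.1%), against 32% of the other promoter peaks (31 to 33%). Protein-coding TSSs of both strands were within 1 kb of 210, 15.4% (13.6 to 17.4%), against 11.7% (11.0 to 12.4%). In 195 of these 210 the genes pointed away from each other, and in 163 of the 195 the Motif 1 site was between the TSSs. Peaks with TSSs on both strands had a median of 75 tags and those with TSSs on 1 strand 65.5.

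The divergent pairs with the most tags were FBXO24 and LRCH4 with 344, POLR1D, a subunit shared by RNA polymerases I and III, and LNX2 with 331, RASSF7 and LMNTD2 with 328, MAF1, a repressor of RNA polymerase III, and SHARPIN with 326, and PRR11 and SKA2 with 281. In the last pair the site was at -9 bp of the TSS of SKA2 and at -463 bp of that of PRR11.

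The weakest peaks were RYBP with 12 tags, and SEPTIN7P9 and LINC02210-CRHR1 with 14 each. At these the highest SOX9 signal was 9, 13 and 14, and the highest input signal 2, 2 and 1. At the limit on distance to the TSS, the outermost peaks inside were DUSP7 (875 bp, 41 tags), ENSG00000257524 (873 bp, 28 tags) and ARHGAP21 (848 bp, 43 tags), and the nearest outside FOXN3 (1028 bp, 24 tags), LRP8 (1035 bp, 62 tags) and ENSG00000288586 (1035 bp, 41 tags). At the limit on distance to the summit, ACTR3B, NUMBL and ASF1B were inside at 96 bp with 82, 37 and 91 tags, and LRRC8D, NUSAP1 and MSH6 outside at 97 bp with 43, 88 and 42 tags.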

How the data were processed

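The authors mapped 50-nt reads to hg19 with BWA, removed duplicates and reads mapping more than once, downsampled the input to the ChIP, and ran MACS 1.3.7.1 at a p of 1e-07 and an mfold of 16. In the deposited peak table tags are raw counts, the score is MACS's -10 × log10(p), fold enrichment is a ratio of tags to the local expectation, and the FDR is an empirical percent, set by the authors. For the deposited signal the authors lengthened each tag to 150 bp and counted those over every 32-nt bin. Each library held 12320108 tags. The intervals (Wilson for shares, order statistics across peaks for medians) do not cover variation between libraries.

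TSSs and exons were from GENCODE release 44 on hg19 (254376 transcripts). The site is the Motif 1 match nearest the summit. A peak is named by the protein-coding gene with the nearest TSS within 1 kb, else by the nearest gene. Named are the 10 peaks with most tags and with highest fold enrichment, up to 4 genes per list by tags, the weakest, those at the limits, those with most cores and the strongest divergent pairs. Other named peaks, such as those at a given core spacing, were chosen after their values were seen. Printed sequence is the span of the cores with 10 bases on either side, outside annotated exons, or at most 29 bases. The criteria and the gene lists were chosen with earlier results of these data known. Alternatives were protein-coding TSSs, 500 bp, the interval midpoint, a stricter score, a window of 50 bp and the CCAAT core. The site search, distances and intervals were tested on simulated data. Python 3.11.15, NumPy, SciPy, pandas and matplotlib were used. NF-YA ChIP, knockdown and expression data were not analysed here.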

Additional observations from a re-analysis of the deposited data

How the results depend on the processing

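Of 202 values recomputed under alternative settings, 145 stayed within the interval of the main value or within 1.5 times the count, and 57 moved. Reversal of direction was not scored. The site position of -59 bp became -65 bp with TSSs of protein-coding transcripts only, -53 bp with the match nearest the TSS, and -81 bp with canonical TSSs, an alternative chosen after seeing the data. With the interval midpoint in place of the summit, the ratio of median tags was 1.13 and that of fold enrichment 1.3, the site lay 40 bp from the midpoint, and list counts were 10 for G1/S, 8 for kinetochore, 3 for centriole, 13 for cholesterol, 1 for antigen presentation, 6 for splicing, 1 for chromatin, 3 for mitochondrial ribosomal and 0 for stem cell genes. With scores of 100 or more the tag ratio was 1.25, and with the highest SOX9 signal in place of tags 1.5. Within 50 bp of the summit the fold ratio was 1.47 and the distance 18 bp, 40.3% of peaks had 2 or more cores, 22.4% of pairs were 30 to 32 bp apart, and list counts were 13 for histones, 4 for heat shock, 1 for chromatin and 0 for proteasome genes. With any CCAAT core in place of Motif 1 there were 2885 peaks with ratios of 1.24 for tags and 1.24 for fold enrichment, and list counts of 30 for G1/S, 26 for kinetochore, 8 for centriole, 26 for unfolded protein response, 16 for heat shock, 22 for splicing, 24 for DNA repair, 10 for chromatin, 21 for cytosolic and 17 for mitochondrial ribosomal, 9 for proteasome, 106 for zinc finger, 4 for stem cell, 1 for cartilage, and 2 and 4 for the study's cancer genes with Motif 1 and with other motifs. The share of promoter matches with SOX9 was 49.8% by overlap with a peak interval and 15.9% for CCAAT cores. The cause of these shifts was not tested beyond the wider or narrower criterion itself. No paired analysis was possible because there was 1 library per condition. With 12320108 tags per library, the values of the weakest peaks rest on 12 to 14 tags.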
